A study of Mus musculus with 48 samples.

Results

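Chin skin of mice was compared between 2 stages of the hair cycle that the labels name as resting phases, on either side of active hair growth. The comparison used every library labelled chin competent telogen (n = 2) or chin refractory telogen (n = 3), which are 5 of the 43 skin-domain libraries and of the 48 samples in all. The 43 libraries cover chin, ventral and dorsal skin at 6 hair cycle stages, and the other 5 samples are ear tissues, of which 2 libraries of ear skin labelled telogen serve here as a reference for resting skin. All 5 chin samples were whole skin of C57BL/6 mice with no transgene or treatment named. Competent telogen is defined by the study as the first telogen and refractory telogen as the early second telogen, so that stage and age of the mouse cannot be told apart, and the ages are not given in the sources used here. Nor do the labels say that replicates came from separate mice, so p-values measure the spread between these samples, which may be technical. Transcript levels were the fragments per kilobase of transcript, scaled to the mapped fragments of each library (FPKM), that the authors deposited. The depth, estimated from the smallest steps in these values, was 9600000 to 16250000 fragments per chin library, so that 1 fragment on a transcript of 2000 bases was worth 0.0342 to 0.0578 FPKM. Each library had between 21461 and 23041 genes above 0 of 46983 listed.

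Hair follicles pass from anagen, when the matrix at the base of the follicle divides and builds the shaft, through catagen, when the lower follicle regresses, into telogen, when the follicle rests. A telogen follicle that does not answer growth cues is called refractory, and one that can answer them is called competent. BMP signals from the follicle and the surrounding dermis and fat hold stem cells at rest, and WNT, hedgehog and FGF signals promote a new anagen. Matrix cells that commit to the shaft switch on homeobox factors, hair keratins and then keratin-associated proteins, and melanocytes make pigment only while the shaft grows.

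The 5 libraries were first checked against their labels, and both groups held abundant transcripts of growing hair. Krt71, a keratin of the inner root sheath that surrounds the growing shaft, averaged 4381 FPKM in the labelled-competent and 2691 FPKM in the labelled-refractory libraries, against 58.8 FPKM in ear skin labelled telogen. The hair keratin list and the inner root sheath list, which also holds genes other than keratins, together took 1.54 to 1.63% of all FPKM in the labelled-competent libraries. They took 0.924 to 1.41% in the labelled-refractory libraries and 0.0219 to 0.0238% in ear skin. Keratin-associated proteins took 0.696 to 0.722%, 3.66 to 4.48% and 0.0485 to 0.0487% in the same order. By these transcripts neither chin group resembled the ear skin libraries, so that the groups are called here by their labels only, as labelled competent and labelled refractory. Ear skin is another body site, and its mean log2(FPKM + 1) was above labelled-refractory chin for cell cycle genes (3.31 to 3.33 against 2.32 to 2.52) and pigment genes (2.97 to 3.08 against 1.51 to 1.58). Sox9 of the follicle averaged 29.4 FPKM in ear skin, against 98.3 FPKM in the labelled-competent and 99.5 FPKM in the labelled-refractory libraries. What part this had in the low Krt71 of ear skin was not tested. Keratin-associated proteins took 8.88 to 8.97% in dorsal and 10.7 to 11.5% in ventral libraries labelled refractory telogen. Krt71 averaged 5879 FPKM in those dorsal and 6590 FPKM in those ventral libraries. Among the 17 other groups of skin libraries, the labelled-competent group lay nearest to the libraries labelled chin early anagen, with a median absolute log2 difference of 0.15 between group means, and the labelled-refractory group ranked 11 with 0.31. The labelled-refractory group lay nearest to the libraries labelled ventral early anagen, at 0.22. Mean log2(FPKM + 1) over cell cycle genes was 2.20 to 2.32 in those ventral libraries, against 4.06 to 4.45 in the libraries labelled chin early anagen. Over pigment genes it was 1.51 to 1.58 against 3.37 to 3.93, so that this nearness does not show an early anagen profile. In the labelled-competent libraries the mean was 4.23 to 4.31 over cell cycle genes and 3.83 to 3.87 over pigment genes. The general markers of whole skin were present in all 5 libraries: Krt5 of basal epidermis lay at 1477 to 1603 FPKM, Krt10 of differentiating epidermis at 827 to 1046 FPKM, Sox9 of the follicle at 85.8 to 114 FPKM and Col1a1 of the dermis at 317 to 685 FPKM. Sex is not given in the sources used here, and all 5 libraries had 11.6 to 18.2 FPKM of Xist and the Y-linked genes Ddx3y and Eif2s3y listed at 0.

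**Figure D1:**
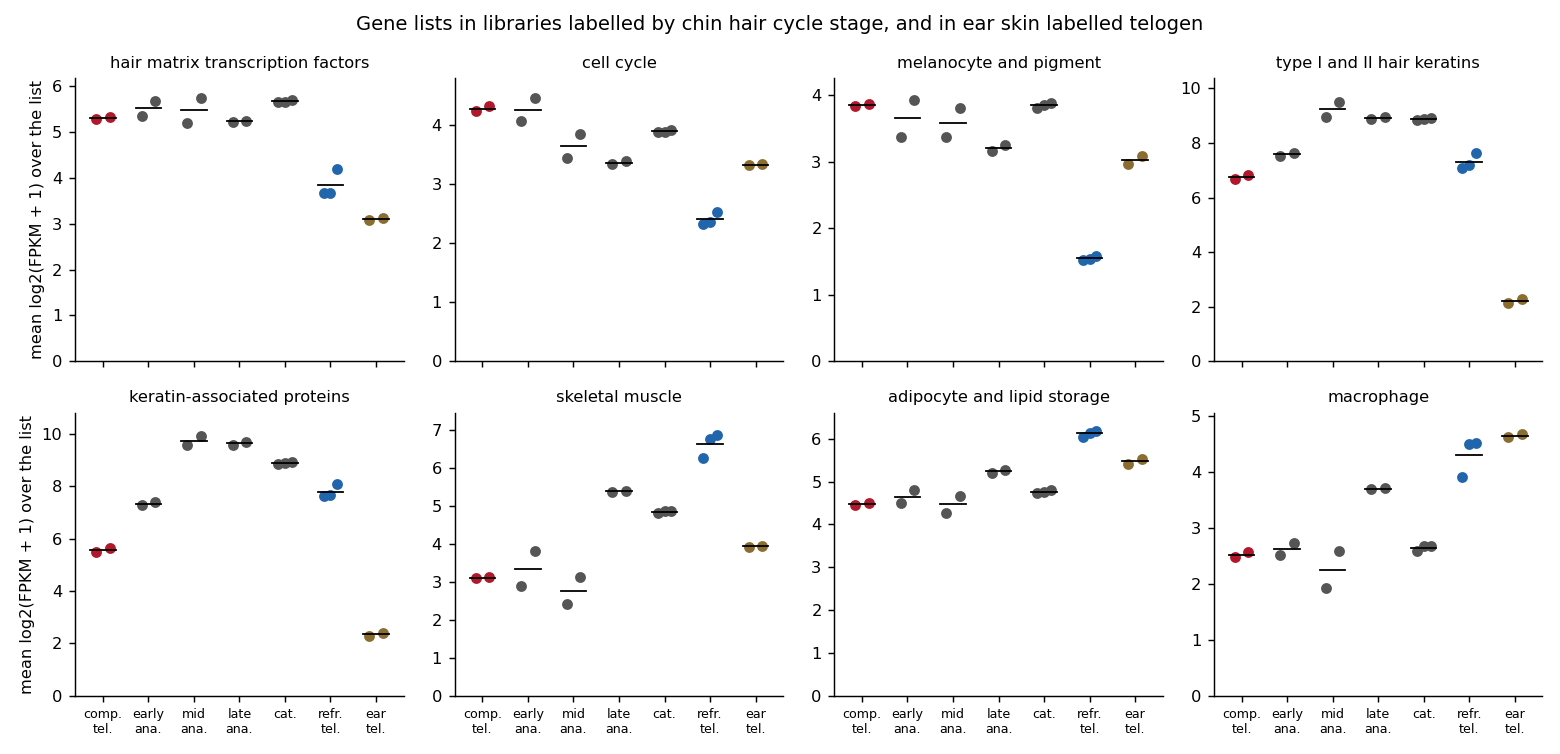
Mean log2(FPKM + 1) over 8 gene lists (y axes) in each chin library by its labelled stage, and in ear skin labelled telogen (x axes). Points are libraries and bars are group means. Both chin telogen groups lie above ear skin for hair keratins and keratin-associated proteins, and the labelled-refractory libraries (blue) are the lowest of the chin stages for matrix factors, cell cycle and pigment genes.

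One library stood apart from the others of its group. Refractory replicate 2 held transcripts of salivary gland, with 1499 FPKM of Smr3a and 3806 FPKM of Bpifa2, both secreted salivary proteins, where the other 4 chin libraries had at most 0.41 and 0.84 FPKM. The highest value of these genes among the other 42 skin libraries was 0.94 FPKM for Smr3a and 1.65 FPKM for Bpifa2. The 16 genes of the salivary list summed to 15.3 to 15.8 FPKM in the labelled-competent and to 197.5 to 6557 FPKM in the labelled-refractory libraries. Refractory replicate 2 also had 283 FPKM of Dcpp1, 340 of Pip, 230 of Amy1, 361 of Car6 and 27.4 of Dcpp3. Muc19, Klk1b1, Klk1b3 and Ren1 were listed at 0 there, and Prol1, Bhlha15, Aqp5, Dcpp2 and Klk1 lay at 0.1 to 5.14 FPKM. Car6 reached 10 FPKM in 37 of the other 42 skin libraries too. Counts are therefore also given without this library wherever leaving it out moved them by more than 1.5 times. Labels were in doubt for another group used below for comparison. The 2 libraries labelled dorsal competent telogen differed from the 2 labelled chin late anagen by a median absolute log2 difference of 0.10 to 0.12, within the range of pairs inside these groups (0.09 and 0.12), and from every other dorsal library by 0.21 to 0.42. Mean log2(FPKM + 1) over pigment genes was 3.22 to 3.25 in the libraries labelled dorsal competent telogen and 3.16 to 3.25 in those labelled chin late anagen. It was 1.23 to 1.27 in those labelled dorsal refractory telogen. Over cell cycle genes it was 3.41 to 3.43, 3.33 to 3.38 and 2.28 in the same order. By these levels the 2 libraries did not resemble the other dorsal telogen group, and which label is right was not tested. The libraries labelled ventral competent telogen, also used below, lay nearest to those labelled dorsal early anagen, at 0.19 between group means.

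Differences between the groups were spread over much of the transcriptome. Of 17490 genes tested on log2(FPKM + 1) with limma, at a Benjamini-Hochberg adjusted p below 0.05, 3189 (18.2%) were higher and 2956 (16.9%) were lower in the labelled-competent libraries, and the median log2 difference was 0.02. These 2 percentages are the background against which each gene list below is read. Of the same 17490 genes, 5791 had both labelled-competent values above all labelled-refractory values, and 5106 had them below. Groups that do not overlap are therefore common in these libraries and set no gene apart. A log2 difference is always labelled competent minus labelled refractory on the log2(FPKM + 1) scale, which understates the change of low genes, and a value alone in parentheses after a gene name is its log2 difference. Changes past 1 on the log2 scale were more often negative, with 1255 genes lower and 664 genes higher. Libraries of one group differed from each other by a median absolute log2 difference of 0.125 to 0.203, and libraries of different groups by 0.346 to 0.422. Single libraries moved these counts: 925 genes were higher and 1340 lower without competent replicate 1, 1536 and 1488 without competent replicate 2, 2104 and 2062 without refractory replicate 1, and 1997 and 1975 without refractory replicate 3. Without refractory replicate 2, the library with salivary transcripts, 3403 genes were higher and 3646 lower.

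**Figure D2:**
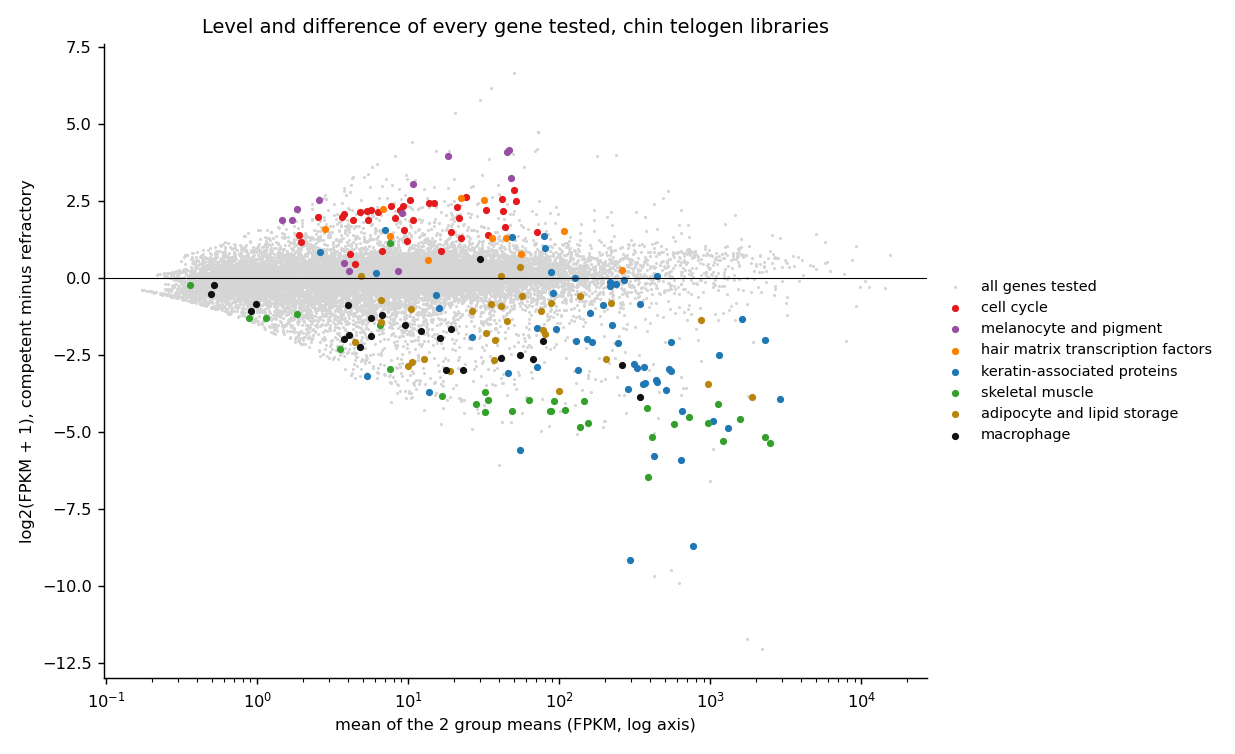
Each point is 1 of the 17490 genes tested, with the mean of the group means in FPKM on a log x axis and the log2 difference, labelled competent minus labelled refractory, on the y axis. Cell cycle, pigment and matrix genes lie above the line, and most keratin-associated protein, muscle, fat and macrophage genes below it.

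Pigment genes stood out among the largest increases. Of the 12 protein-coding genes with the largest increase, groups that did not overlap and a mean of at least 10 FPKM in the higher group, 6 are expressed by melanocytes. Mlana, an antigen of melanocytes, was at 91.5 and 86.7 FPKM in the labelled-competent and 6.14, 2.71 and 3.83 in the labelled-refractory libraries (log2 difference 4.16, SE 0.27, adjusted p = 0.000590). Pmel, which forms the fibrils on which melanin is laid down, was at 93.9 and 78.96 FPKM against 4.89, 4.1 and 3.6 (log2 difference 4.07, SE 0.14, adjusted p = 0.000116). The pigment enzymes Tyrp1 (36.96 and 33.6 FPKM against 1.52, 0.94 and 1.67, log2 difference 3.95) and Dct (84.8 and 88.7 FPKM against 8.04, 7.87 and 8.96, log2 difference 3.24) showed the same pattern. So did the ion channel Trpm1 (34.9 and 24.9 FPKM against 0.48, 0.97 and 0.89, log2 difference 4.11) and the melanosome exchanger Slc24a5 (21.9 and 17.6 FPKM against 1.64, 2.66 and 0.62, log2 difference 3.04). In the whole list of melanocyte and pigment genes, 10 of 13 tested were higher and 0 lower (0 lower at an unadjusted p under 0.05), with a median log2 difference of 2.23, and the 3 that did not pass were Mitf (log2 difference 0.23), the master regulator of the lineage, Sox10 (0.21) and Kit (0.46). The counts were 6 higher without either competent replicate. In these bulk samples, fewer cells of a type and less RNA per cell cannot be told apart, here and in every list below. The other 6 of the 12 largest increases included Mycn, a growth-promoting transcription factor (20.2 and 16.6 FPKM against 0.77, 1.36 and 0.7, log2 difference 3.33), the methyltransferase Gnmt (131 and 133 FPKM against 6.02, 9.67 and 4.86, log2 difference 4.13) and the epidermal protease Klk14 (17.8 and 19.2 FPKM against 0.96, 1.16 and 1.19, log2 difference 3.21). The remaining 3 were the threonine dehydrogenase Tdh, the replication factor 2810417H13Rik and the histone gene Hist1h2ae, with log2 differences of 3.22, 3.02 and 3.58.

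Transcription factors of the hair matrix were higher as a group. Of 11 tested, 9 were higher and 0 lower (0 lower at an unadjusted p under 0.05), with a median log2 difference of 1.34. Lef1, the factor through which WNT signals act in matrix and dermal papilla, was at 39.1 and 38.6 FPKM against 4.3, 8.72 and 4.69 (log2 difference 2.58, SE 0.27, adjusted p = 0.00227). Msx1, a homeobox factor of the matrix, was at 59.5 and 49.5 FPKM against 8.3, 11.5 and 6.44 (log2 difference 2.54, SE 0.23, adjusted p = 0.00149), and the distal-less factors Dlx4 (11.8 and 11.9 FPKM against 1.46, 2.5 and 1.46, log2 difference 2.21) and Dlx3 (159 and 160.3 FPKM against 45.3, 71.7 and 51.4, log2 difference 1.52) were also higher. All labelled-competent libraries lay above all labelled-refractory libraries for these 4 genes, as they did for 5791 of the 17490 genes tested. Foxn1, which the nude mouse lacks, and Gata3, a factor of the inner root sheath, did not pass, with log2 differences of 0.57 and 0.25. The count was 5 higher without competent replicate 1, and the calls lost were those of Dlx1, Hoxc13, Msx2 and Ovol1 without competent replicate 1 and Dlx1, Hoxc13 and Msx2 without competent replicate 2.

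The hedgehog pathway was higher from ligand to targets, with 7 of 9 tested genes higher, 0 lower (0 lower at an unadjusted p under 0.05) and a median log2 difference of 1.17. Shh, the ligand that matrix and hair germ secrete, was at 7.55 and 4.56 FPKM in the labelled-competent and 0.75, 0.73 and 0.51 in the labelled-refractory libraries (log2 difference 2.05, SE 0.21, adjusted p = 0.00216). Its receptor Ptch1 (7.94 and 7.27 FPKM against 1.93, 2.31 and 2.08, log2 difference 1.47) and the decoy receptor Hhip (4.5 and 5.18 FPKM against 1.32, 1.2 and 1.16, log2 difference 1.39) are themselves induced by hedgehog signals. None of their values overlapped between groups, which in this direction was so for 5791 of the 17490 genes tested. Among the transcription factors, Gli1 (3.23 and 3.2 FPKM against 0.9, 1.02 and 1.4, log2 difference 1.01) and Gli3 (7.7 and 7.44 FPKM against 2.33, 3.03 and 3.15, log2 difference 1.17) passed and Gli2 did not (1.34 and 1.58 FPKM against 1.46, 1.23 and 1.15, log2 difference 0.11). The transducer Smo passed (14.6 and 12.2 FPKM against 8.13, 7.3 and 8.85, log2 difference 0.66), and the ligand Dhh did not (1.29 and 0.9 FPKM against 1.7, 1.23 and 1.63, log2 difference -0.27). The calls lost were those of Gli1 and Smo without competent replicate 1. The other strand of the Gli1 locus carries Arhgap9, and the library kit did not keep strand.

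Cell division genes rose together, with 37 of 38 tested genes higher, 0 lower (0 lower at an unadjusted p under 0.05) and a median log2 difference of 1.97. Cdk1, the kinase that starts mitosis, was at 97.1 and 80.3 FPKM against 9.06, 18.1 and 8.94 (log2 difference 2.85, SE 0.31, adjusted p = 0.00253). Its partner Ccnb1 was at 45.1 and 39.1 FPKM against 6.22, 6.72 and 5.2 (log2 difference 2.62, SE 0.13, adjusted p = 0.000300), and the proliferation marker Mki67 at 13.5 and 13.3 FPKM against 1.85, 2.05 and 1.81 (log2 difference 2.31, SE 0.11, adjusted p = 0.000233). Both labelled-competent libraries lay above all 3 labelled-refractory libraries for each of them, as for 5791 of the 17490 genes tested. The other genes with the largest differences were the survivin gene Birc5 (2.56), Cenpf of the kinetochore (2.51), the ubiquitin enzyme Ube2c (2.50) and the kinase Aurkb (2.43), and the helicase subunits Mcm2 to Mcm7 ran from 0.86 to 1.88. Mybl2 alone did not pass (4.85 and 5.71 FPKM against 2.96, 4.79 and 3.15, log2 difference 0.46, adjusted p = 0.131). Ube2c overlaps the muscle gene Tnnc2 on the other strand, and Cdc20 and Mcm7 overlap Elovl1 and Cops6, so that these 3 values are uncertain without strand.

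Genes of the hair shaft and its sheath did not move as a block. In the inner root sheath list 6 of 10 tested were higher and 1 lower, with a median log2 difference of 0.69. Krt25 had the largest difference (2019 and 1779 FPKM against 506, 777 and 472, log2 difference 1.73, SE 0.23, adjusted p = 0.00437), followed by Krt73 (log2 difference 1.56) and Krt28 (log2 difference 1.31), and Tchhl1, a relative of trichohyalin, was lower (141 and 142 FPKM against 230.1, 227 and 235, log2 difference -0.70). The count was 1 higher without competent replicate 1, 3 higher without competent replicate 2 and 2 higher without refractory replicate 1 or 3, and Krt25 was the only higher member to keep its call in all of these. In the list of hair keratins 3 of 12 tested were higher and 5 lower. Krt35, an early keratin of matrix and cortex, was at 859 and 789.7 FPKM in the labelled-competent and 116, 215 and 103 in the labelled-refractory libraries (log2 difference 2.58, SE 0.32, adjusted p = 0.00351), and Krt82 and Krt32 of the cuticle had log2 differences of 1.67 and 0.97. Krt84 stood at the other end, at 0.39 and 0.08 FPKM against 37.4, 23.7 and 36.4 (log2 difference -4.74, SE 0.24, adjusted p = 0.000280), and Krt86 (-2.11), Krt81 (-1.72), Krt34 (-1.47) and Krt33b (-1.47) were also lower. Calls lost were Krt82 and Krt32 without either competent replicate and Krt32 without refractory replicate 1.

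Keratin-associated proteins, which cross-link keratins late in shaft formation, were mostly lower. This list was drawn up after its values had been seen. Of 56 tested, 39 were lower and 4 higher, with a median log2 difference of -2.09. Of the 12 protein-coding genes with the largest decreases, 10 lie side by side on chromosome 16 (chr16:89063412-89420111, GRCm38). The stretch is bounded by these same genes, and no other gene within it was tested. Gm7735, a predicted gene of this cluster, was listed at 0 in both labelled-competent libraries and at 4813, 3302 and 4981 FPKM in the labelled-refractory libraries, and Krtap20-2 was listed at 0 against 618, 441 and 704 FPKM. Krtap6-3 was at 3.56 and 1.82 FPKM against 1632, 1120.4 and 1823 (log2 difference -8.70, SE 0.28, adjusted p = 0.000102). Gm6358 and 1110057P08Rik were also listed at 0 in both labelled-competent libraries, Gm9789 (-9.93) and Gm10061 (-9.50) were under 1 FPKM there, and 1110025L11Rik (-6.60), Krtap21-1 (-5.91) and Krtap6-2 (-5.80) completed the cluster. The remaining genes of the 12 were Krtap31-1 on chromosome 11 (1.31 and 0.99 FPKM against 83.5, 163 and 81.3, log2 difference -5.61) and the muscle gene Tcap. Krtap22-2, the most abundant member, was at 323 and 372 FPKM against 5508, 5222 and 5457 (log2 difference -3.96, SE 0.10, adjusted p = 5.64e-05). The 4 higher members were Krtap5-3 (1.56), Krtap28-10 (1.34), Krtap24-1 (1.31) and Krtap5-2 (0.98). Near-identical copies share reads in this family, so that the split between neighbours is uncertain. The count of higher members was 1 higher without either competent replicate or refractory replicate 3, 2 higher without refractory replicate 1 and 8 higher without refractory replicate 2.

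Outside the follicle, the interfollicular epidermis list had 11 of 31 tested genes higher and 4 lower, with a median log2 difference of 0.33. Flg, the filaggrin precursor of the cornified layer, was at 729 and 694 FPKM in the labelled-competent and 128, 138 and 143 in the labelled-refractory libraries (log2 difference 2.38, SE 0.08, adjusted p = 0.000116). Casp14, the protease that processes filaggrin (83.98 and 80.8 FPKM against 18.1, 16.8 and 18.1, log2 difference 2.16), and the filaggrin relatives Flg2 (1.22) and Hrnr (1.22) were also higher, whereas Sprr2h (-2.71) and Rptn (-1.51) of the cornified envelope were lower. Krt5, Krt14, Krt10 and Krt1 did not pass. Krt16, a keratin of the companion layer and of stressed epidermis, was at 13.04 and 12.8 FPKM against 134, 90.5 and 126 (log2 difference -3.06, SE 0.18, adjusted p = 0.000440), and its list had 1 of 6 tested higher (Krt6b, 1.54) and 2 lower (Krt16 and Krt6a, -0.71). Krt6b fell under the minimum and was not tested without either competent replicate, so that 0 genes of that list were then higher. The epidermal counts were 3 higher without competent replicate 1, 7 higher without competent replicate 2, 5 higher without refractory replicate 1 or 3 and 2 lower without competent replicate 1.

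Of the BMP ligands 1 of 7 tested passed. Bmp2, a ligand of the follicle and of fat, was at 13.3 and 10.03 FPKM against 9.64, 10.9 and 11.4 (log2 difference 0.11, adjusted p = 0.596). Bmp4, made by the dermal papilla, was at 28.4 and 29.3 FPKM against 25.8, 22.6 and 25.5 (log2 difference 0.22, adjusted p = 0.125), and Bmp7 at 17.7 and 15.3 FPKM against 15.3, 16.9 and 16.3 (log2 difference 0.03, adjusted p = 0.865). Bmp8a was the ligand that passed, at 14.8 and 14.1 FPKM against 5.16, 6.08 and 4.13 (log2 difference 1.34, SE 0.16, adjusted p = 0.00303), and Bmp3 (-0.31), Bmp6 (0.23) and Gdf10 (-0.43) did not. Bmp6 overlaps Txndc5 on the other strand. Bmp5, Bmp8b, Gdf5, Gdf6 and Gdf7 were under 0.5 FPKM in all 5 libraries and were not tested.

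BMP antagonists and pseudoreceptors were split, with 2 of 14 tested higher and 5 lower and a median log2 difference of -0.09. Sostdc1, an antagonist of both BMP and WNT made by the dermal papilla and sheath, was at 199 and 199 FPKM against 121, 104 and 121 (log2 difference 0.79), and Bambi, a pseudoreceptor that BMP itself induces, at 33.9 and 29.5 FPKM against 13.4, 19 and 12.6 (log2 difference 1.05). Nbl1 (36.3 and 36.2 FPKM against 135, 84.8 and 124, log2 difference -1.60), Chrdl1 (0.98 and 0.95 FPKM against 4.01, 2.87 and 4, log2 difference -1.23), Chrd (-0.70) and Fstl1 (-0.60) were among the lower ones. Noggin transcripts (Nog) were low in both groups (0.9 and 1.59 FPKM against 1.13, 0.98 and 1.59) and did not pass. Of 7 genes that respond to BMP signals 3 were higher and 0 lower (0 lower at an unadjusted p under 0.05), namely Id3 (303 and 274 FPKM against 173, 142 and 155, log2 difference 0.88), the inhibitory Smad6 (6.16 and 5.25 FPKM against 2.04, 2.6 and 2.03, log2 difference 1.06) and Bambi, while Id1 (0.10), Id2 (0.20), Id4 (0.24) and Smad7 (0.46) did not pass. Antagonist counts were 1 higher without competent replicate 1 and 2 lower without either competent replicate. Calls lost among those named were Bambi, Chrd and Fstl1 without competent replicate 1 and Chrd and Fstl1 without competent replicate 2.

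WNT ligands included 4 of 14 tested that were higher and 2 that were lower, with a median log2 difference of 0.28. Among the genes named below, Wnt8a, Wnt10b and the agonist Rspo2 reached the minimum for testing in the labelled-competent libraries alone. Wnt2 reached it in the labelled-refractory libraries alone. These genes were thus tested only because they were high in 1 group. At a minimum of 5 FPKM, 1 of 6 ligands tested was higher and 0 lower. Wnt5a, a ligand of dermis and papilla that mostly acts without beta-catenin, was at 29.6 and 28.2 FPKM in the labelled-competent and 7.63, 11.6 and 8.97 in the labelled-refractory libraries (log2 difference 1.54, SE 0.17, adjusted p = 0.00255). Wnt10b, a ligand tied to anagen onset, was at 2.19 and 1.63 FPKM against 0.41, 0.29 and 0.46 (log2 difference 1.06, SE 0.16, adjusted p = 0.00588), and Wnt3a (4.82 and 3.72 FPKM against 1.95, 1.88 and 2.2, log2 difference 0.80) and Wnt8a (1.07 and 0.77 FPKM against 0, 0 and 0.05, log2 difference 0.91) were also higher. The lower ligands were Wnt2 (0 and 0.09 FPKM against 0.92, 1.1 and 0.56, log2 difference -0.82) and Wnt9a (1.15 and 0.89 FPKM against 2.36, 1.87 and 1.78, log2 difference -0.57). The more abundant ligands Wnt3 (0.33), Wnt10a (0.30), Wnt11 (0.02), Wnt4 (0.26) and Wnt7b (-0.30) did not pass, nor did Wnt5b (0.25), Wnt6 (0.47) or Wnt16 (0.12). Wls, which carries all WNT ligands to the cell surface, was at 91.6 and 85.9 FPKM against 46.5, 48.8 and 51.5 (log2 difference 0.85, SE 0.08, adjusted p = 0.00189), and Rspo2, a WNT agonist of the papilla, at 1.09 and 1.2 FPKM against 0.12, 0 and 0.09 (log2 difference 1.00), while Rspo1 (-0.37), Rspo3 (0.14), Rspo4 (-0.29) and Porcn (0.01) did not pass. Counts of ligands were 1 higher without competent replicate 1, 2 higher without competent replicate 2, 7 higher without refractory replicate 2, 0 lower without either competent replicate or refractory replicate 1 and 1 lower without refractory replicate 3, and of agonists 1 higher without either competent replicate.

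WNT antagonists, some secreted and some in the membrane, moved in both directions, with 4 of 13 tested higher and 4 lower. Wif1, which binds WNT ligands, was at 47.2 and 46.6 FPKM against 4.61, 5.46 and 5.47 (log2 difference 2.96, SE 0.11, adjusted p = 0.000118). Sfrp4, a frizzled-related antagonist, was at 0.46 and 0.68 FPKM against 8.76, 9.83 and 8.93 (log2 difference -2.70, SE 0.13, adjusted p = 0.000240), and Dkk2 (1.96 and 2.32 FPKM against 7.66, 6.56 and 8.71, log2 difference -1.46), Sfrp2 (3.85 and 3.56 FPKM against 9.45, 17.04 and 9.63, log2 difference -1.42) and Sfrp5 (-0.98) were also lower. Kremen2 (0.82), Sfrp1 (0.81) and Apcdd1 (0.76) were higher. Among 14 target and response genes 5 were higher and 2 lower. Beside Lef1 these were the cyclin Ccnd1 (70.5 and 66.5 FPKM against 17.4, 19.4 and 16.3, log2 difference 1.90), the feedback inhibitor Nkd2 (1.02), Tnfrsf19 (0.75) and Tcf7 (0.71), and the lower ones Twist2 (-0.66) and Ascl2 (-0.60). Axin2, the most used WNT reporter gene, was at 6.42 and 7.34 FPKM against 5.56, 5.05 and 5.27 (log2 difference 0.32, adjusted p = 0.0723) and did not pass. Counts of antagonists were 2 higher without competent replicate 1, and of targets 3 higher without competent replicate 2, 1 lower without competent replicate 1 and 0 lower without competent replicate 2 or refractory replicate 1 or 3.

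**Figure D3:**
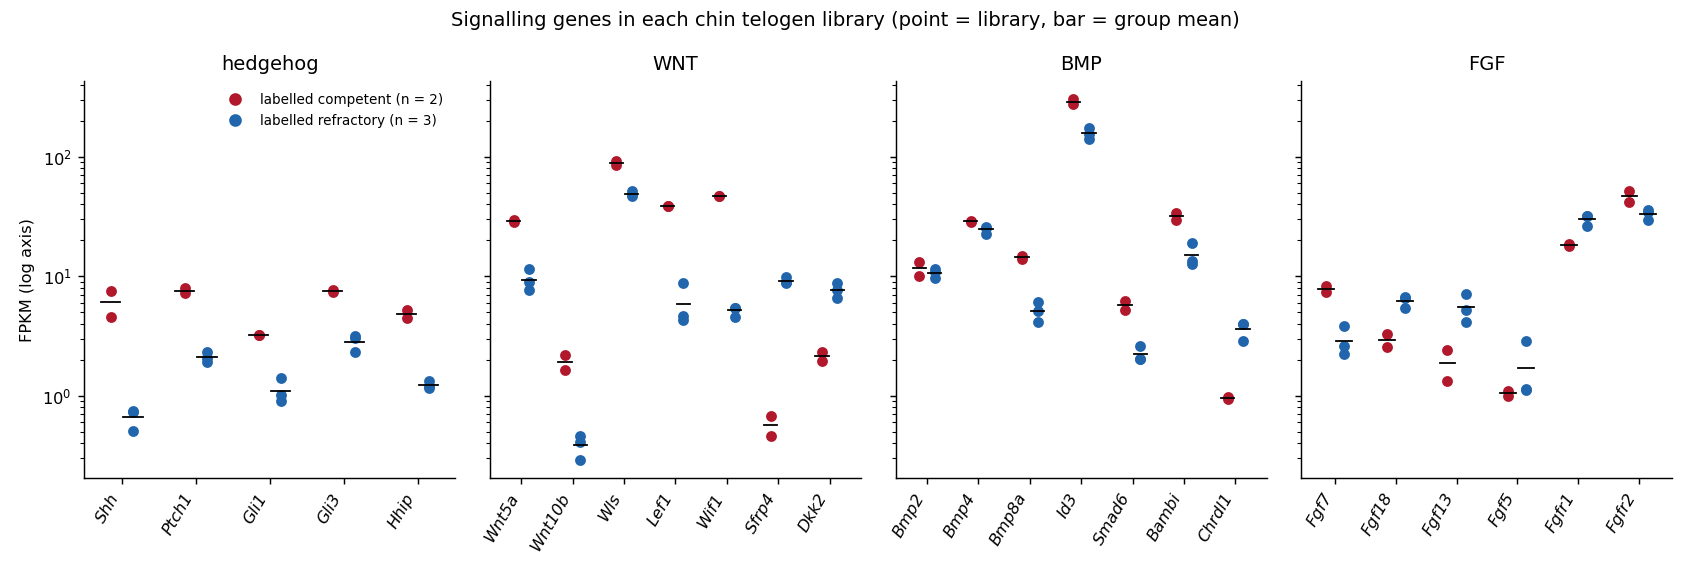
FPKM (log y axis) of 25 hedgehog, WNT, BMP and FGF genes in each labelled-competent (red, n = 2) and labelled-refractory (blue, n = 3) library. Points are libraries and bars are group means. Hedgehog genes separate upward in the labelled-competent libraries, Sfrp4, Dkk2 and Chrdl1 downward, and Bmp2 overlaps.

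FGF genes had 2 of 13 tested higher and 4 lower. Fgf7, the papilla ligand that stimulates hair germ and matrix, was at 8.33 and 7.38 FPKM against 2.62, 2.22 and 3.86 (log2 difference 1.20, SE 0.20, adjusted p = 0.00858), and its receptor Fgfr2 at 51.4 and 42.1 FPKM against 34.4, 29.8 and 35.5 (log2 difference 0.48). Fgf18, a ligand of resting follicles, was at 3.29 and 2.56 FPKM against 6.64, 5.4 and 6.75 (log2 difference -0.89, SE 0.15, adjusted p = 0.00894). Fgf13 (1.32 and 2.44 FPKM against 5.18, 4.15 and 7.12, log2 difference -1.17), Fgf1 (-0.73) and the receptor Fgfr1 (18.5 and 17.9 FPKM against 32.01, 26.4 and 31.9, log2 difference -0.69) were lower as well. Fgf5, the ligand that ends anagen, did not pass (1 and 1.1 FPKM against 1.15, 2.86 and 1.13, log2 difference -0.35, adjusted p = 0.401), and neither did Fgf10 (0.23), Fgf22 (-0.34), Fgfr3 (0.18) or Fgfr4 (-0.46). Of 13 TGF-beta and activin genes 0 were higher (0 higher at an unadjusted p under 0.05) and 3 lower, the ligand Tgfb2 (-0.77) and the receptors Tgfbr3 (-0.75) and Tgfbr2 (-0.58). FGF counts were 0 higher without competent replicate 1, 1 higher without competent replicate 2 or refractory replicate 1 or 3, 1 lower without either competent replicate and 2 lower without refractory replicate 1, and TGF-beta counts 0 lower without either competent replicate, 1 lower without refractory replicate 1 or 3 and 6 lower without refractory replicate 2.

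Stem cell genes were evenly split, with 5 of 18 tested higher and 5 lower and a median log2 difference of -0.10. Cd34, a surface marker of bulge stem cells, was at 47.2 and 45.4 FPKM against 114, 72.2 and 114 (log2 difference -1.07, SE 0.22, adjusted p = 0.0165), and Krt15, a bulge and basal keratin, at 2513 and 2557 FPKM against 4429, 3108 and 4257 (log2 difference -0.62, SE 0.18, adjusted p = 0.0431). Lgr5 (12.4 and 11.7 FPKM against 13.6, 11.5 and 13.7, log2 difference -0.09, adjusted p = 0.556) and Sox9 (-0.01), which mark bulge and germ cells, did not pass. The higher genes included Npnt, a matrix ligand for integrin (1.05), the cadherin Cdh3 (0.93) and the factor Lhx2 (0.77). In the dermal papilla list 5 of 15 tested were higher and 0 lower (1 lower at an unadjusted p under 0.05), of which Lef1, Hhip, Fgf7 and Sostdc1 stand in other lists too and the fifth was the proteoglycan Vcan (7.37 and 6.1 FPKM against 2.44, 1.25 and 2.64, log2 difference 1.34). The papilla marker Corin was under 1 FPKM in all 5 libraries (-0.31, not passed). The stem cell counts were 2 higher without competent replicate 1, 3 higher without competent replicate 2, 1 lower without either competent replicate and 3 lower without refractory replicate 1 or 3, and the papilla count 3 higher without competent replicate 1 and 1 lower without refractory replicate 2.

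Among the gene lists, that of skeletal muscle had the lowest median. Of 33 tested, 31 were lower and 1 higher, with a median log2 difference of -4.23. Tcap, a cap protein of the sarcomere, was at 6.43 and 8.65 FPKM in the labelled-competent and 894, 611 and 799 in the labelled-refractory libraries (log2 difference -6.49, SE 0.20, adjusted p = 9.35e-05). Acta1, the actin of skeletal muscle, was at 129 and 114 FPKM against 5212, 3326 and 4808 (log2 difference -5.16, SE 0.21, adjusted p = 0.000156), and Ckm, its creatine kinase, at 62.5 and 53 FPKM against 2769, 1836 and 2437 (log2 difference -5.30, SE 0.19, adjusted p = 0.000118). The list summed to 856.5 to 886.4 FPKM in the labelled-competent and to 18790 to 29890 FPKM in the labelled-refractory libraries, or 0.0920 to 0.0927% against 1.96 to 3.12% of all FPKM, and none of its 5 defining markers was at 0. Tnnc2 (-5.36), Eno3 (-5.18) and Neb (-4.85) were the other genes with the largest differences, and Tnni1, a troponin of slow and immature fibres, was the exception (10.97 and 10.4 FPKM against 3.91, 5.55 and 3.91, log2 difference 1.11), and its call was lost without competent replicate 1. How much of any other difference came with the amount of muscle in the sample was not tested. In the smooth muscle list 4 of 11 tested were lower and 1 higher, where Des (-3.89) and Synpo2 (-2.69) are also expressed in skeletal muscle and Tagln was higher (1.06). This count was 7 lower without refractory replicate 2.

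Adipocyte genes were mostly lower, with 27 of 30 tested lower, 0 higher (1 higher at an unadjusted p under 0.05) and a median log2 difference of -1.42. Cfd, the adipokine adipsin, was at 256 and 226 FPKM against 3619, 3649.7 and 3378 (log2 difference -3.88, SE 0.10, adjusted p = 5.62e-05). Adipoq, the adiponectin gene, was at 58.4 and 52.7 FPKM against 353, 345 and 358 (log2 difference -2.64, SE 0.08, adjusted p = 9.35e-05), and Cidec, a protein of the lipid droplet, at 13.3 and 13.8 FPKM against 209, 154 and 194 (log2 difference -3.67). Car3 (-3.47), the gluconeogenic enzyme Pck1 (-3.03), the droplet coat Plin4 (-2.88) and the glucose transporter Slc2a4 (-2.74) were also lower. None of these values overlapped between groups, which in this direction was so for 5106 of the 17490 genes tested. The summed level was 1696 to 1717 FPKM in the labelled-competent and 8381 to 8986 FPKM in the labelled-refractory libraries. Genes of the sebaceous gland had 8 of 16 tested lower and 3 higher, led by the desaturase Scd3 (3.12 and 3.89 FPKM against 15.3, 28.9 and 15.7, log2 difference -2.17) and the wax synthases Awat2 (-1.56) and Awat1 (-1.31), and with the elongase Elovl3 higher (0.92). The sebaceous counts were 0 higher without competent replicate 1, 1 higher without competent replicate 2 and 4 lower without either competent replicate.

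Macrophage genes were lower in 20 of 24 tested and higher in 1, with a median log2 difference of -1.88. Retnla, which alternatively activated macrophages and fat express, was at 39.1 and 45.03 FPKM in the labelled-competent and 715, 498 and 698 in the labelled-refractory libraries (log2 difference -3.87, SE 0.18, adjusted p = 0.000243). Lyz2, the lysozyme of myeloid cells, was at 59.98 and 62.3 FPKM against 532, 303 and 538 (log2 difference -2.84, SE 0.27, adjusted p = 0.00162), and C1qb, a complement subunit that macrophages make, at 19.6 and 15.3 FPKM against 137, 79.3 and 129 (log2 difference -2.63). Refractory replicate 2 was the lowest of the labelled-refractory libraries for these 3 genes but lay above both labelled-competent libraries. Folr2 (-3.01), Cd209f (-3.01) and C1qc (-2.62) were lower as well. Adgre1, which encodes F4/80, did not pass (2.54 and 2.72 FPKM against 10.1, 4.13 and 11.8, log2 difference -1.31, adjusted p = 0.0521). The 1 higher gene was not called without competent replicate 1. The list summed to 252.4 to 262.9 FPKM against 1274 to 2014 FPKM.

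Lists of antigen presentation, chemokines, interferon response and mast cells also had more genes lower than higher. Antigen presentation genes had 9 of 14 tested lower and 0 higher (0 higher at an unadjusted p under 0.05), with H2-Ab1, a class II chain, at 176 and 186 FPKM against 1004, 472 and 978 (log2 difference -2.09, SE 0.34, adjusted p = 0.00837), and Cd74 and H2-Eb1 at log2 differences of -1.96 and -1.89. This count was 2 lower without competent replicate 1, 3 lower without competent replicate 2, 5 lower without refractory replicate 1 and 4 lower without refractory replicate 3. Chemokines had 17 of 28 tested lower and 2 higher. Ccl24, an attractant of eosinophils, was at 0.76 and 1.16 FPKM against 22.5, 16.96 and 23.4 (log2 difference -3.48, SE 0.18, adjusted p = 0.000308), and Ccl2, which draws monocytes, at 3.08 and 3.07 FPKM against 25.1, 32.9 and 26.8 (log2 difference -2.83). Ccl6 (-2.59), Ccl8 (-2.42), Cxcl1 (-2.32) and Ccl9 (-2.32) followed, and Ccl20 (1.04) and Xcl1 (0.56) were higher. Chemokine counts were 0 higher without competent replicate 1, 1 higher without competent replicate 2 or any refractory replicate, 8 lower without competent replicate 1 and 9 lower without competent replicate 2. In the interferon list 15 of 21 tested were lower and 0 higher (0 higher at an unadjusted p under 0.05), led by Ifit3 (-1.93) and Gbp2 (-1.67), and in the mast cell list 6 of 9 were lower and 0 higher (1 higher at an unadjusted p under 0.05), led by the tryptase Tpsb2 (4.38 and 5.79 FPKM against 48.4, 28.5 and 49.1, log2 difference -2.79). T cell genes gave 0 calls of 17 tested by limma, with a median log2 difference of -0.21 and 2 higher and 5 lower at an unadjusted p under 0.05, and the count was 1 higher without refractory replicate 2, 5 lower without refractory replicate 2 and 1 lower without refractory replicate 3. The 2 most abundant were Trbc2 (92.99 and 86.5 FPKM against 72.5, 77.8 and 69.3, log2 difference 0.29) and Cd3g (14.96 and 15.5 FPKM against 16.4, 14.4 and 16.7, log2 difference -0.05).

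Markers of further tissues were checked as whole lists. Blood vessel genes had 7 of 12 tested lower and 0 higher (0 higher at an unadjusted p under 0.05) (92.33 to 92.94 against 126.8 to 175.1 FPKM in sum), lymph vessel genes 3 of 6 lower (79.69 to 80.96 against 164.1 to 392.9 FPKM), and red blood cell genes 4 of 6 lower (1097 to 1123 against 1577 to 3853 FPKM). Vessel counts were 2 lower without competent replicate 1, 3 lower without competent replicate 2 or refractory replicate 1 or 3 and 11 lower without refractory replicate 2, lymph vessel counts 0 lower without either competent replicate and 6 lower without refractory replicate 2, and red blood cell counts 0 lower without either competent replicate or refractory replicate 1 or 3. Schwann cell genes had 2 of 10 lower (201.7 FPKM in both labelled-competent libraries against 261.0 to 298.7 FPKM) and neutrophil genes 2 of 7 lower and 1 higher (39.15 to 40.61 against 36.99 to 67.49 FPKM, with 1 of the 5 defining markers at 0 throughout). B and plasma cell genes had 1 of 2 tested lower (7.49 to 8.95 against 24.76 to 35.85 FPKM), and cartilage and bone genes 1 of 3 higher (2.27 to 2.84 against 1.23 to 2.48 FPKM, 1 defining marker at 0). The salivary list had 2 of 4 tested lower. The neutrophil count was 0 higher without either competent replicate and 1 lower without competent replicate 1 or refractory replicate 1, the cartilage and bone count 0 higher without either competent replicate, the B and plasma cell count 2 lower without refractory replicate 2, and the salivary count 1 lower without either competent replicate or refractory replicate 3.

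**Figure D4:**
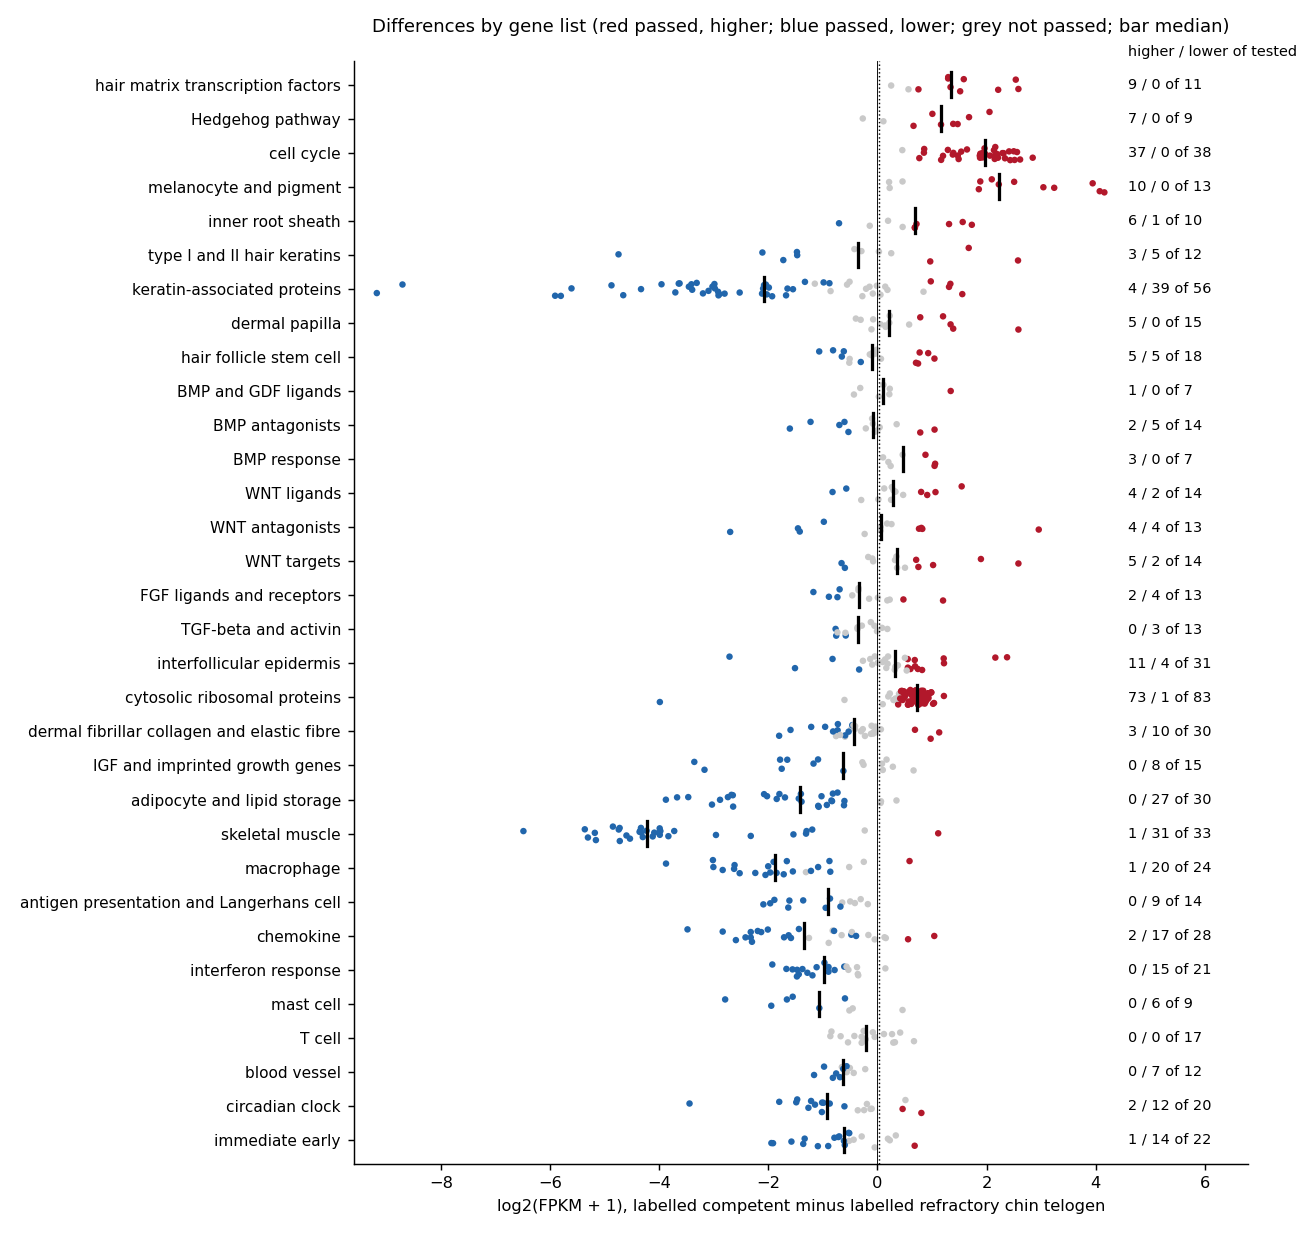
Log2 difference, labelled competent minus labelled refractory, of every tested gene in 32 lists, with red for genes that passed as higher, blue as lower and grey not passed. Bars are list medians, the dotted line is the median of all genes at 0.02, and the counts stand at the right. Pigment and cell cycle lists lie farthest to the right and skeletal muscle farthest to the left.

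Circadian clock genes were mostly lower. The clock is a loop in which Arntl and Clock drive the Per, Cry and Nr1d genes, whose products then shut the drivers off. Of 20 tested, 12 were lower and 2 higher, with a median log2 difference of -0.93. Dbp, an output of the loop that binds D-boxes, was at 5.56 and 4.73 FPKM in the labelled-competent and 73.7, 56.6 and 67.9 in the labelled-refractory libraries (log2 difference -3.44, SE 0.14, adjusted p = 0.000156). Its relative Tef was at 9.05 and 7.54 FPKM against 26.8, 21.6 and 25.9 (log2 difference -1.47), and the repressor genes Per3 (5.17 and 5.57 FPKM against 18.5, 25.9 and 19.7, log2 difference -1.80), Bhlhe41 (9.29 and 8.33 FPKM against 24.1, 28.7 and 26.8, log2 difference -1.49) and Nr1d1 (12.3 and 12.51 FPKM against 37.4, 23.9 and 34.1, log2 difference -1.26) were also lower. The genes higher were the driver Arntl (8.71 and 9.56 FPKM against 6.51, 6.41 and 6.14, log2 difference 0.46) and Cry1 (7.75 and 5.46 FPKM against 3.85, 3.29 and 2.82, log2 difference 0.81), and Clock did not pass (-0.10). The hour at which skin was taken is not given in the sources used here, and its part in these differences was not tested. Counts of higher genes were 0 higher without competent replicate 1 and 1 higher without competent replicate 2 or refractory replicate 1 or 3, and Nr1d1 lost its call without competent replicate 1. Dbp, Nr1d1 and Per3 overlap Sphk2, Thra and Camta1.

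Promoters of these clock genes were read from RefSeq (GRCm38.p6), from 250 bases before to 50 after the start, for 9 of the 12 lower genes. The E-box CACGTG, bound by the drivers, was in 4 of the 9, in 1 of the 2 higher genes, in 0 of the 5 not passed that had an entry, and in 2346 of 32817 promoters (7.15%). A D-box, searched as TTATGTAA or TTACGTAA on both strands, was in 1 of the 9 and in 346 of all promoters (1.05%). Some clock genes had more than 1 promoter, and a gene counted if any of its promoters held the motif. The shares of all promoters count each promoter singly, so the 2 measures are not alike. Shown here are the lower gene with D-boxes, the one with the most E-boxes and the one with the largest decrease, with motifs in capitals.
Per3 (chr4:151044616-151044915, minus strand): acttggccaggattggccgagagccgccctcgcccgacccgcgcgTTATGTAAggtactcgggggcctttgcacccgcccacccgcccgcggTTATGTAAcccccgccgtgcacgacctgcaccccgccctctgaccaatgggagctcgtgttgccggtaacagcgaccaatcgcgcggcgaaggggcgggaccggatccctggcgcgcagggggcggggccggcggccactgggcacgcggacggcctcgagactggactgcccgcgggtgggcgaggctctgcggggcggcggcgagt
Ciart (chr3:95882179-95882478, minus strand): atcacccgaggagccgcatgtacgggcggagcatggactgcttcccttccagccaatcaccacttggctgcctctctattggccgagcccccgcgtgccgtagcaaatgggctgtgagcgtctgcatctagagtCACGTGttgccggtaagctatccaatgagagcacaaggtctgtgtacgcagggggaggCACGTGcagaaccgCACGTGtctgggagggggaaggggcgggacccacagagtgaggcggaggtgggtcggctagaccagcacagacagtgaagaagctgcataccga
Dbp (chr7:45704997-45705296, plus strand): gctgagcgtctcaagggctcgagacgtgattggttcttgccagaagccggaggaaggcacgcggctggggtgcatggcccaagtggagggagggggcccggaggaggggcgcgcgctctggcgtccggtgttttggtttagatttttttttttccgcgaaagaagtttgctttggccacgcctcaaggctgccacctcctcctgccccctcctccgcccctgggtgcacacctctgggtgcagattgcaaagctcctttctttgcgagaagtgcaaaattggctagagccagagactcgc
Per3 carried 2 D-boxes, Ciart 3 E-boxes (4.74 and 4.64 FPKM against 11.7, 10.7 and 9.18, log2 difference -1.01) and Dbp neither within these letters. A match is a description only and names no bound site.

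Immediate early genes, which cells switch on without new protein synthesis, were lower in 14 of 22 tested and higher in 1, with a median log2 difference of -0.60. Klf2 was at 6.21 and 6.47 FPKM against 35.3, 18.7 and 30.4 (log2 difference -1.94, SE 0.26, adjusted p = 0.00465), the phosphatase Dusp1 at 43.5 and 49.9 FPKM against 174, 186 and 176 (log2 difference -1.91, SE 0.09, adjusted p = 0.000248), and Fos at 135 and 114 FPKM against 232, 358 and 227 (log2 difference -1.09). Atf3 (-1.58), Fosb (-1.36) and Nr4a1 (-1.33) followed, and Egr3 was higher (0.68). Calls lost were Fos and Egr3 without competent replicate 1 and Fos without competent replicate 2.

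Growth genes of the fetal and imprinted set were lower in 8 of 15 tested and higher in 0 (1 higher at an unadjusted p under 0.05), with a median log2 difference of -0.62. Nnat, an imprinted proteolipid gene, was at 3.87 and 4.03 FPKM against 48.6, 50.6 and 49.8 (log2 difference -3.36, SE 0.08, adjusted p = 5.53e-05), and H19, the imprinted non-coding RNA, at 8.93 and 10.01 FPKM against 114, 56.7 and 124 (log2 difference -3.17, SE 0.34, adjusted p = 0.00242). Its neighbour Igf2 was at 2.16 and 2.72 FPKM against 13.6, 7.73 and 11.9 (log2 difference -1.78), and Igf1, a growth factor of dermal cells, at 8.57 and 6.6 FPKM against 29.8, 25.9 and 27.7 (log2 difference -1.75, SE 0.13, adjusted p = 0.000875). The growth inhibitor Cdkn1c (-1.65) and Ndn (-1.17) were lower as well. Nnat lies within Blcap on the other strand. In the list of steroid receptors and enzymes 10 of 16 tested were lower and 1 higher, with the oestrogen receptor Esr1 at 0.95 and 0.87 FPKM against 6.26, 5.73 and 6.54 (log2 difference -1.91, SE 0.12, adjusted p = 0.000500), the growth hormone receptor Ghr at -1.44 and the androgen-activating enzyme Srd5a2 at -1.19 on the log2 scale. These counts were 0 higher without either competent replicate or any refractory replicate and 4 lower without either competent replicate, and Srd5a2 lost its call without either competent replicate.

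Genes of dermal collagen and elastic fibres were lower in 10 of 30 tested and higher in 3, with a median log2 difference of -0.42. The largest decreases were those of the cross-linking enzyme Loxl1 (3.93 and 4.48 FPKM against 20.8, 13.1 and 18.3, log2 difference -1.80, SE 0.20, adjusted p = 0.00265), the microfibril gene Mfap5 (30.2 and 28.6 FPKM against 98.3, 76.5 and 98.97, log2 difference -1.59) and the proteoglycan Lum (-1.21). Col1a1 did not pass (473 and 572 FPKM against 685, 317 and 684, log2 difference -0.03, adjusted p = 0.966), with refractory replicate 2 below both labelled-competent libraries and the other two labelled-refractory libraries above them. The higher genes were Col12a1 (1.13), Fbn2 (0.98) and Tnc (0.69). Counts were 1 higher without either competent replicate, 4 lower without either competent replicate, 5 lower without refractory replicate 1 or 3 and 22 lower without refractory replicate 2, and the calls lost among those named were Lum and Col12a1 without either competent replicate.

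Cytosolic ribosomal protein genes, a list added after its values had been seen, were higher in 73 of 83 tested and lower in 1, with a median log2 difference of 0.72. Rps12 had the largest increase (286 and 228 FPKM against 116, 116 and 96.7, log2 difference 1.22, SE 0.14, adjusted p = 0.00280). The 1 lower gene was Rpl3l, the paralogue that skeletal muscle expresses (1.85 and 1.83 FPKM against 53.8, 35.5 and 44.5, log2 difference -3.99). The list summed to 129800 to 131200 FPKM against 81430 to 89120 FPKM, and 46 genes were higher without competent replicate 1.

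Lists of putative hair cycle activators and inhibitors, which the study had drawn from the time course of an earlier microarray series of dorsal skin and not from these libraries, were both more often higher than lower. Of 233 activators tested 129 (55.4%) were higher and 42 (18%) lower, with a median log2 difference of 0.63. The cell cycle list shares 27 of them, all 27 higher, and the other 206 had 102 higher and 42 lower with a median of 0.45. Of 119 inhibitors tested 46 (38.7%) were higher and 7 (5.9%) lower, with a median of 0.24. Activator counts were 21 lower without competent replicate 1 and 22 lower without competent replicate 2, and inhibitor counts 18 higher without competent replicate 1, 24 higher without competent replicate 2, 29 higher without refractory replicate 3, 2 lower without either competent replicate and 4 lower without refractory replicate 1 or 3.

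The chin difference was then compared with the same difference in dorsal skin (2 libraries labelled competent and 2 labelled refractory telogen) and in ventral skin (3 and 2), in 1 fit of 14 libraries with a test of the difference between differences. The dorsal comparison rests on the 2 libraries labelled dorsal competent telogen, which matched those labelled chin late anagen as closely as replicates, and no dorsal value can be had without them. Against dorsal skin, 1734 of 19132 genes (9.06%) had a more positive and 2180 (11.4%) a more negative difference in chin. Against ventral skin, 1066 (5.57%) were more positive and 4336 (22.7%) more negative, beside a median over all genes of 0.01 in chin, 0.00 in dorsal and 0.27 in ventral skin. The ventral split changed with the scaling, and dividing each library by the median of its ratios gave 2324 more positive and 2586 more negative genes. Both comparisons share the chin libraries. Positive calls against dorsal skin numbered 974 without chin competent replicate 1, 977 and 939 without dorsal competent replicates 1 and 2, 847 and 1033 without dorsal refractory replicates 1 and 2, and 2833 and 2836 without ventral refractory replicates 1 and 2. Negative calls against dorsal skin were 1522 to 2692 over all left-out libraries. Positive calls against ventral skin ran from 720 without chin competent replicate 1 to 1675 without ventral refractory replicate 2, and negative calls from 2988 to 6201.

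Among the 15 lists plotted for the 3 domains, the medians of skeletal muscle lay farthest apart, with the same doubt on the dorsal label. Ventral medians are to be read beside the 0.27 over all genes there. Of all genes tested, 11.4% were more negative in chin than in dorsal and 22.7% than in ventral skin. More positive were 9.06% and 5.57%. The list counts against ventral skin hold for the scaling as reported and were not repeated under the other scalings. Skeletal muscle took 0.861% of all FPKM in the libraries labelled dorsal competent telogen and 0.847 to 0.849% in those labelled chin late anagen. Its list median was -4.23 in chin, 0.41 in dorsal and -1.51 in ventral skin, and 31 of 33 genes were more negative in chin than in dorsal and 30 than in ventral skin. Macrophage genes had medians of -1.88, 1.16 and 0.28 in the same order, with 22 of 24 more negative than in dorsal and 20 than in ventral skin, and fat genes of -1.42, 0.96 and -0.53, with 24 and 18 of 30. Keratin-associated proteins ran from -2.09 in chin to 1.09 in dorsal and -3.01 in ventral skin, with 49 more negative than in dorsal and 34 more positive than in ventral skin. These proteins took 13.04 to 13.14% of all FPKM in the dorsal libraries labelled competent and 8.88 to 8.97% in those labelled refractory, against 0.676 to 0.896% and 10.7 to 11.5% in ventral skin. Cell cycle genes were higher in all 3, at medians of 1.97, 1.13 and 2.17, with 21 of 38 more positive in chin than in dorsal skin and 5 less than in ventral skin. Melanocyte genes were at 2.23, 1.60 and 1.66, and 4 of them were more positive than in dorsal skin and 2 than in ventral skin. Clock genes stood at -0.93, -0.15 and 0.21, of which 7 were more negative and 4 more positive than in dorsal skin, and 11 more negative than in ventral skin.

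**Figure D5:**
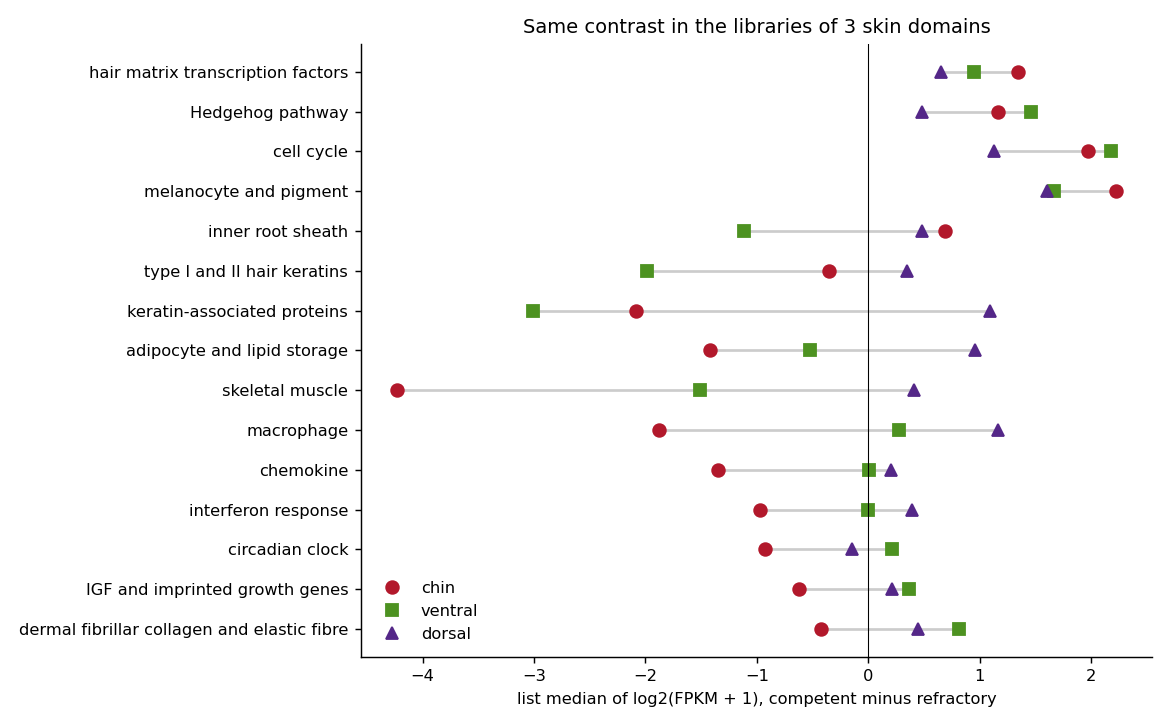
Medians of the log2 difference, labelled competent minus labelled refractory (x axis), over 15 gene lists (y axis) in chin (circles), ventral (squares) and dorsal (triangles) skin. The symbols for skeletal muscle and keratin-associated proteins lie farthest apart, and those for cell cycle and pigment genes are all above 0. The dorsal symbols rest on the 2 libraries whose values match chin late anagen.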

How the data were processed

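Whole-skin RNA of 43 libraries was read as paired-end sequence from full-length cDNA libraries fragmented with a transposase, a kit that does not keep strand. The authors mapped reads to mm10 with GENCODE vM8 models, quantified genes with RSEM 1.2.25, state a correction for batch effects without naming the batches, and deposited the values as FPKM. Read counts were not used here. Of the columns in the deposited tables, 3 matched no sample's labels and were left out. The sequencing depth of the chin libraries was estimated from the steps between low FPKM values of single-transcript genes, with an assumed fragment length of 200 bases, and low genes are the least precise.

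Groups follow the labels. Genes that reached 0.5 FPKM in 2 or more of the fitted libraries were tested with limma 3.58.1 (moderated, variance trend) in R 4.3.3 on log2(FPKM + 1), with Benjamini-Hochberg adjusted p below 0.05 over all genes tested. A gene could reach this minimum through 1 group alone. The chin fit held 5 libraries, and the differences between differences were tested in a fit of 14 telogen libraries of chin, dorsal and ventral skin. Both fits were first tested on simulated data. Every p in the text is from limma.

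The members and the 45 gene lists were chosen with earlier results of these data known, and keratin-associated, ribosomal protein and mitochondrial genes were added as lists by name after their values had been seen. Of 942 listed symbols 6 were not matched. Genes were named by rule: the 12 protein-coding genes with the largest difference in each direction with a mean of at least 10 FPKM and groups that did not overlap, up to 6 genes of each list with the largest differences, the 4 largest in each direction for each difference between differences, and BMP, WNT, FGF and hedgehog members at 1 FPKM or more. Further genes were named after their values were seen, and a few members of these lists are counted but not reported singly here. Gene overlaps came from GENCODE vM21, to which 46488 of 46983 genes matched.

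As alternatives, each library was left out in turn, replicate number entered the model as a block, all 43 libraries were fitted together in 18 groups, the pseudocount was set to 0.1, the filter was dropped or raised to 5 FPKM, values were converted to TPM or divided by each library's median ratio, and the variance trend was switched off.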

Additional observations from a re-analysis of the deposited data

Results flagged for a closer look

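For 16 genes, 8 for each of the other skin domains, the chin difference differed from the same difference elsewhere by a test of the difference itself (limma, 14 libraries), and all 16 kept this call under every alternative in which they were tested. Each value below is the chin log2 difference minus that of the other domain. They were picked by size among all genes tested, so the sizes are a description. The dorsal values rest on libraries labelled competent that matched those labelled chin late anagen as closely as replicates.

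Against dorsal skin, epidermal, protease and protease inhibitor genes were the more positive ones in chin. Flg differed by 3.59 (SE 0.20, adjusted p = 7.70e-07), with a log2 difference of 2.38 in chin and -1.21 in dorsal skin, where it was at 65.9 and 69.2 FPKM in the libraries labelled competent against 155 and 161 in those labelled refractory. Klk14 differed by 3.67 (SE 0.29), with 0.89 and 0.56 FPKM against 1.18 and 1.54 in dorsal skin. The serpin gene Serpinb12 differed by 3.83 (SE 0.24), with 18.96 and 18.29 FPKM against 5.54, 7.1 and 5.91 in chin and 0.54 and 0.57 against 6.24 and 7.92 in dorsal skin. The stefin gene Stfa1 differed by 4.39 (SE 0.61), from 2.33 in chin to -2.06 in dorsal skin.

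The more negative ones were a pair of keratin-associated neighbours and a pair of major urinary protein genes, and both families share reads between near-identical copies. Gm7735 differed by -9.57 and Gm6358 by -9.25. Both were listed at 0 in the chin libraries labelled competent, so these sizes depend on the pseudocount, and in dorsal skin Gm7735 was at 1908 and 1784 FPKM against 10380 and 10416. Mup18 differed by -8.73 (SE 0.30), with 15.4 and 13.2 FPKM against 349, 471 and 332 in chin and 399.6 and 418.5 against 24.9 and 21.3 in dorsal skin, and Mup11 by -8.89 (SE 0.79). For both Mup genes the groups did not overlap in either domain and lay in opposite order.

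Against ventral skin, keratin-associated proteins were less strongly lower in chin. Krtap19-5 differed by 4.54, Krtap16-3 by 4.31 and Krtap19-1 by 4.04, with log2 differences of -1.67, -0.88 and -0.99 in chin and -6.22, -5.19 and -5.03 in ventral skin. The 4.01 of the uroplakin gene Upk3a restates its ventral change alone and is no chin result, since it was listed at 0 in all 5 chin libraries, against 0.63, 0.28 and 0.54 FPKM against 20.7 and 24.96 in ventral skin.

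The sebaceous desaturase Scd3 differed by -6.24 (SE 0.40), with 83.8, 46.97 and 80.2 FPKM against 3.22 and 3.01 in ventral skin, the reverse of its order in chin. Serpinb6e differed by -6.19 (SE 0.36), from -1.34 in chin to 4.85 in ventral skin, and sarcolipin of muscle, Sln, by -5.74 (SE 0.33), from -3.75 to 1.99. The predicted gene Gm10800 differed by -5.81 (SE 0.94), and its 912 FPKM in refractory replicate 2 stood against 192 and 222 FPKM in the other two.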

How the results depend on the processing

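No named gene that passed changed direction in any alternative in which it was tested, but some splits did. Named genes that did not pass were not followed through the alternatives. Of the gene lists, BMP antagonists went from 2 higher and 5 lower to 3 and 2 at a minimum of 5 FPKM, and the medians of BMP ligands (0.11) and WNT agonists (0.08) became -0.07 and -0.06 without competent replicate 1, that of BMP ligands -0.04 without a filter, and that of cartilage and bone -0.34 from 0.32 without competent replicate 1. The chin counts of 3189 higher and 2956 lower genes stayed within 1.5 times under another pseudocount, either filter, either scaling, no variance trend and the fit of all 43 libraries. Leaving out 1 library at a time gave 925 to 3403 higher and 1340 to 3646 lower genes. Without a competent library that arm holds 1 sample, which is assumed to vary like the other group, and fewer residual degrees of freedom remain. The replicate number as a block gave 1016 higher and 1356 lower genes, so that lower genes became the larger side, as they also were without competent replicate 1 or refractory replicate 2. Whether the numbers pair the samples cannot be told from 2 pairs, because the deviations of the 2 competent libraries mirror each other. The deviations of same-numbered libraries correlated at -0.021 and -0.012 over genes, and these values are a description. In the comparison with dorsal skin the block gave 1431 more positive and 2060 more negative genes, and with ventral skin 801 and 3805.

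Against dorsal skin, the fit of all 43 libraries gave 2855 more positive genes, and leaving out 1 library gave 847 to 2836 more positive and 1522 to 2692 more negative genes, with the larger side turned to positive without a ventral refractory library. Against ventral skin, leaving out 1 library gave 720 to 1675 more positive and 2988 to 6201 more negative genes. There, the scaling moved the split: the more positive share of calls was 19.7% in the fit as reported, 47.3% with the median of ratios (2324 and 2586 genes) and 10.5% with TPM (640 and 5451 genes). The cause was not tested.

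Of 510 genes named or called in the chin lists, 302 kept their call under every alternative in which they were tested and 443 under all but the block and the left-out libraries. On a transcript of 2000 bases, values near 0.0578 FPKM or lower rest on about 1 fragment in the shallowest chin library, so differences among such genes were not detectable at this depth.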

Other observations

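A pair of short RNAs, chosen after their values were seen, were detected in the labelled-competent libraries alone. Snord104, a small nucleolar RNA, was at 93.0 and 106 FPKM there and listed at 0 in all 3 labelled-refractory libraries, and Snord49b was at 80.1 and 60.96 FPKM and listed at 0 in the same 3. FPKM of transcripts this short rest on few fragments and on the length model of the quantification.

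Protein-coding genes of the mitochondrial genome, a list added after its values had been seen, had 4 of 13 tested higher and 0 lower (0 lower at an unadjusted p under 0.05, limma), with a median log2 difference of 0.39. mt-Atp8, a subunit of the ATP synthase, was at 7332 and 8334 FPKM against 3024, 3150.1 and 4653 (log2 difference 1.14, SE 0.21, adjusted p = 0.0126), and the list summed to 55580 to 56070 FPKM against 34760 to 45930 FPKM. The count was 0 higher without either competent replicate and 1 higher without refractory replicate 1.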
